A study of Mus musculus with 16 samples.

Results

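The 10 genes described here encode the PGC-1 coactivators (Ppargc1a, Ppargc1b), nuclear factors that work with them (Esrra, Esrrg, Nrf1), the mitochondrial DNA factor Tfam, the fusion proteins Mfn1, Mfn2 and Opa1, and the fission GTPase Dnm1l. They were picked by gene symbol, and all 10 were found among the 23222 symbols of the deposited tables. Values were compared over 4 groups of 4 RNA-seq libraries from myofibers of the extensor digitorum longus, a fast hindlimb muscle, of male C57BL/6 mice. The old runners were 22 months old and had free access to a running wheel for 5 weeks, and the old controls were 22 months old without that treatment. The young runners were 4 months old with the same 5 weeks of wheel running, and the young controls were 4 months old without it. In all groups the fibers had been freed of mononucleated cells, and cDNA was made with SMART-Seq v4, a kit for small amounts of RNA. The labels do not say whether each library came from a separate animal, so each p-value here rests on the spread among libraries only. Libraries are called here by their names in the deposited tables.

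PGC-1α and PGC-1β bind no DNA themselves. They dock on nuclear receptors such as the estrogen-related receptors ERRα and ERRγ and on nuclear respiratory factors, and so raise transcription of respiratory chain genes and of Tfam, whose protein packages and transcribes mitochondrial DNA. Mitofusins join the outer membranes of neighbouring mitochondria, OPA1 joins the inner membranes, and the dynamin-related GTPase DRP1, the product of Dnm1l, divides mitochondria. In skeletal muscle Ppargc1a is known for its short-lived induction by exercise and for driving mitochondrial content and oxidative fiber properties.

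Recovered depth was 30.7 to 67.4 M reads per library (median 46.9 M). Levels are given in RPM, the reads of a gene per 1000000 recovered reads of its library. Fiber markers summed to 138085 to 225646 RPM in the 16 libraries, with no marker of that list without reads in any group. The young control library Yc4 and the old control library Oc2 stood apart from their groups, Yc4 for several of the 10 genes and Oc2 for Esrrg, and results that rest on them are also given without them. Genes with reads numbered 12694 (Oc1) to 17565 (Yc5) per library. Yc4 had 13803, against 16492 to 17565 in the other young controls. Oc2 had 13790, within the 12694 to 15087 of the old controls. The part of these counts in the values of Yc4 and Oc2 was not tested. Reads could include other cells: 10 fibro-adipogenic markers together held 43.0 to 93.7 RPM in old runners and 5.72 to 49.96 in old controls, and 80.4 to 272 in young runners and 1.33 to 16.5 in young controls. Satellite cell markers (8 genes) summed to 483 to 770.4 RPM in old runners and 248 to 553 in old controls, and to 733 to 1043 in young runners and 222 to 862 in young controls. Of the defining markers, the fibro-adipogenic gene Pdgfra had no reads in either old group, and the satellite cell gene Calcr had none in either old group and Pax7 none in old controls. Endothelial markers (12 genes) summed to 25.6 to 107 RPM in old runners and 13.0 to 123 in old controls, and to 31.7 to 142 in young runners and 6.73 to 25.1 in young controls. Smooth muscle markers (7 genes) summed to 14.3 to 72.2 RPM in old runners and 6.26 to 39.7 in old controls, and to 15.1 to 66.9 in young runners and 1.15 to 12.4 in young controls. For fibro-adipogenic, endothelial and smooth muscle markers the young runners all lay above the young controls, without overlap. Leukocyte markers (10 genes) summed to 10.9 to 36.8 RPM in old runners and 8.82 to 27.7 in old controls, and to 18.4 to 65.5 in young runners and 13.1 to 59.6 in young controls. Schwann cell markers (6 genes) stayed at or below 14.8 RPM in every library. The part of these cells in the results below was not tested. In bulk RNA, fewer cells of a type and less RNA per cell cannot be told apart.

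The promoters of 9 of the 10 genes were available from RefSeq (build GRCm38.p6) and were searched on both strands over the 250 bases before the RefSeq gene start for binding motifs of the factors that the genes themselves encode or partner with. The NRF1 core CGCATGCG was present in the Opa1 promoter and in 1.55% of all 32851 promoter windows, and the GABPA motif CCGGAAG was present in those of Mfn1 and Tfam and in 6.91% of all windows. The ERR motif AAGGTCA (4.08% of windows) and the cyclic AMP response element TGACGTCA (1.55% of windows) matched in 0 of the 9. The 3 stretches that hold a match are shown because Opa1 and Mfn1 are fusion genes and Tfam is the textbook target of nuclear respiratory factors. Each is written along the gene, 5′ to 3′, with the motif in capitals.
Opa1, chr16:29579265-29579294, plus strand: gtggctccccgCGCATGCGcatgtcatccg
Mfn1, chr3:32529427-32529456, plus strand: gatccgaagcgCCGGAAGtagccgccccta
Tfam, chr10:71238073-71238102, minus strand: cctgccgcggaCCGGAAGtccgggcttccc
The motif starts 58 bases before the RefSeq gene start in Opa1, 44 in Mfn1 and 47 in Tfam. For Mfn1 and Tfam that start differs from the one in the GENCODE positions given further on. A match describes the letters of the window and no binding was measured.

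Compared per exon length, the outer-membrane fusion genes were the most abundant of the 10 transcripts. Over the 16 libraries Mfn2 averaged 137 ± 36.4 RPM per kilobase of exon (SD), which lies at percentile 96.8 of the 9948 genes with reads in all libraries. Mfn1 followed with 55.6 ± 8.89, then Esrra with 29.9 ± 4.75, Dnm1l with 19.6 ± 4.44, Opa1 with 13.6 ± 3.98, Ppargc1a with 12.2 ± 4.29, Tfam with 9.24 ± 1.56, Ppargc1b with 5.17 ± 1.87, Esrrg with 3.42 ± 1.61 and Nrf1 with 1.90 ± 0.603 on the same scale. Most steps of this order held within libraries: Mfn2 was above Mfn1 in 16 of 16 libraries, Mfn1 above Esrra in 15 and Dnm1l above Opa1 in 16. The neighbours Opa1 and Ppargc1a (10 of 16 libraries in that order), Ppargc1a and Tfam (11 of 16) and Ppargc1b and Esrrg (12 of 16) overlapped widely. Nrf1, the least abundant on this scale, lay at percentile 29.9. The exon length joins all annotated exons of a gene and is longest for Nrf1 (10282 bp), so the order depends on the annotation. In RPM, without length, Nrf1 averaged 19.5, Ppargc1b 20.6 and Esrrg 21.2, and Opa1 (107) was above Dnm1l (102).

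**Figure D1:**
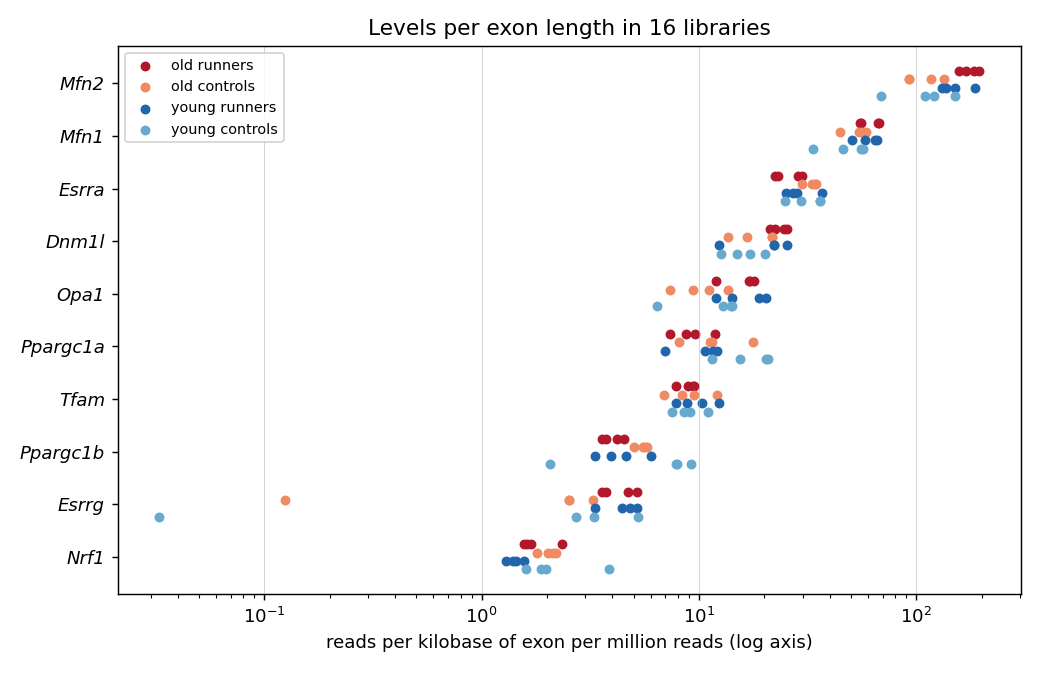
Levels of the 10 genes per exon length (x axis, RPM per kilobase of exon, log axis), with 1 point per library and the groups in separate lines. Mfn2 averages 137 and Nrf1 1.90 on this scale, and the lone points far to the left are Esrrg in Oc2 and Yc4.

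The question of the running comparisons is what 5 weeks of wheel running did to these transcripts at each age. Within each age 0 of the 10 genes passed the test (limma, Benjamini-Hochberg adjusted p under 0.05 over all genes tested). Few genes of any kind passed it: 12 of 9379 in old mice (0.128%) and 81 of 10624 in young mice (0.762%). When the running effects of both ages were averaged in 1 fit, a comparison added after the data were seen, 928 of 9356 genes passed (9.92%), and Mfn2 and Opa1 were among those that rose (5.07% of all genes tested), while 0 of the 10 fell (4.85% of all genes tested). The other 8 did not pass, and of these Mfn1, Dnm1l, Esrrg and Tfam had positive differences and Ppargc1a, Ppargc1b, Nrf1 and Esrra negative ones. The median difference of the 10 genes was 0.24 on the log2 scale, against 0.04 for all genes tested.

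**Figure D2:**
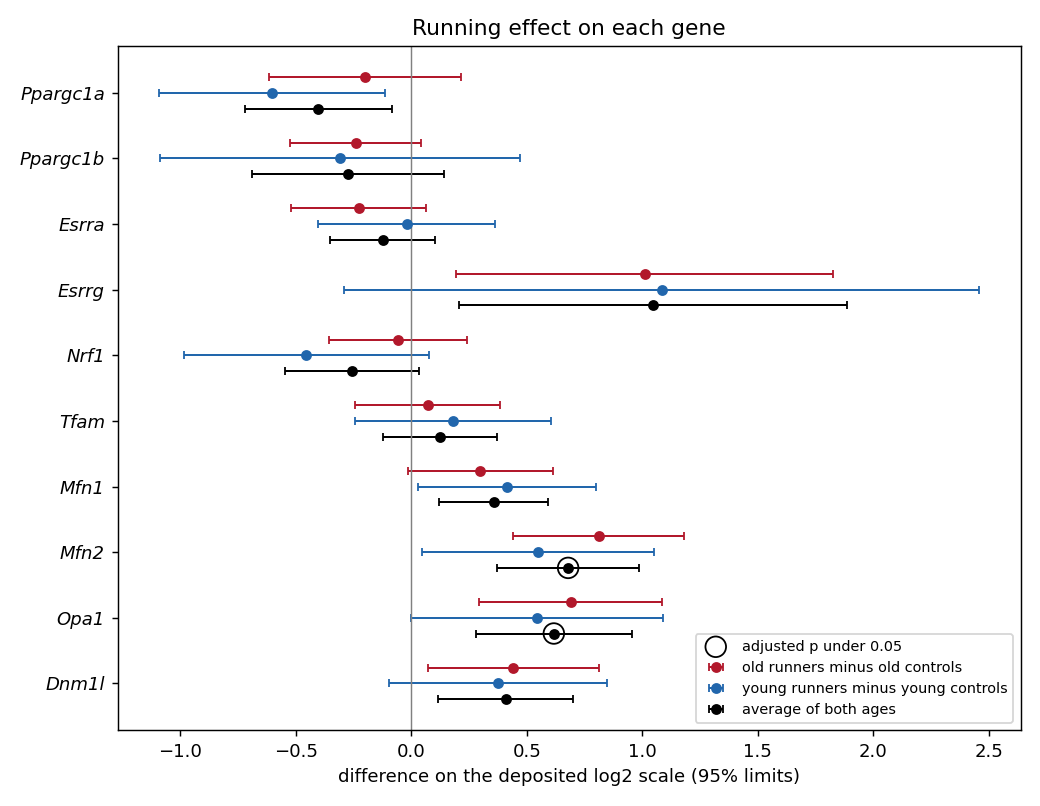
Runner minus control difference of each gene (x axis, deposited log2 scale) with 95% limits, for old mice, young mice and the average of both ages. Circles mark an adjusted p under 0.05, reached by Mfn2 (0.68) and Opa1 (0.62) in the average; the fusion and fission genes lie right of 0 at both ages, and Ppargc1a and Ppargc1b left of it.

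Ppargc1a, which encodes the exercise-induced coactivator PGC-1α, lies at chr5:51454250-51567726 on the minus strand (GRCm38, GENCODE M21, as are all gene positions here). Its transcript level was 48.6, 63.4, 77.9 and 57.6 RPM in old runners, against 75.5, 73.9, 53.4 and 117 in old controls. In young mice it was 70.2, 79.6, 45.9 and 76.8 in young runners, against 102, 138, 135 and 76.1 in young controls. The old groups overlapped, and in young mice the lowest control lay among the runners, so the groups overlapped there too. The difference was -0.20 on the log2 scale in old mice (95% limits -0.62 to 0.22, limma adjusted p = 0.616) and -0.60 in young mice (-1.09 to -0.11, adjusted p = 0.207). Averaged over both ages it was -0.40 (-0.72 to -0.08, adjusted p = 0.0970), so Ppargc1a was not called lower in runners. It passed in 2 of 25 alternatives, with quantile normalisation (-0.47, limma adjusted p = 0.0498) and without Yc8 (-0.49, adjusted p = 0.0476). The value in old mice was -0.04 without Oc4 and -0.36 without Oc3.

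Ppargc1b, encoding the related coactivator PGC-1β, lies on chr18:61298136-61400431, minus strand. It had 16.7, 14.3, 18.1 and 14.8 RPM in old runners, against 22.0, 22.3, 22.9 and 20.01 in old controls. In these units every old runner was below every old control, as for 8.82% of all genes tested, while on the deposited log2 scale, where libraries are scaled by size factors in place of totals, the groups overlapped. Young runners had 13.3, 24.1, 18.5 and 15.8 RPM, and young controls 8.28 in Yc4 and 36.5, 31.6 and 31.1 in the others, so that all 4 young runners lay between Yc4 and the other 3 controls. The difference was -0.24 in old mice (-0.53 to 0.04, limma adjusted p = 0.365) and -0.31 in young mice (-1.09 to 0.47, adjusted p = 0.681), with -0.69 in young mice without Yc4 (adjusted p = 0.123) and -0.12 without Yc5 (adjusted p = 0.885). The average over both ages was -0.27 (-0.69 to 0.14, adjusted p = 0.379). It was -0.47 without Yc4 (limma adjusted p = 0.0225) and -0.43 with library weights (adjusted p = 0.0187), the 2 of 25 alternatives in which it passed, and -0.18 without Yc5 (adjusted p = 0.552). Per exon length Ppargc1a exceeded Ppargc1b by 1.76 to 2.68 times in old runners and 1.41 to 3.55 times in old controls, and by 1.504 to 3.20 times in young runners and 1.48 to 7.42 times in young controls, where Yc4 held the highest ratio. The groups overlapped at both ages.

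Esrra encodes ERRα, an orphan nuclear receptor that carries much of the PGC-1α response (chr19:6910977-6921813, minus strand). Its exons overlap those of Trmt112 on the other strand, and the libraries keep no strand, so reads of the shared stretch could not be told apart. Esrra had 130.01, 97.8, 125 and 102 RPM in old runners, against 145, 131, 150.3 and 151 in old controls, and 162, 119, 110.5 and 124 in young runners, against 158, 129, 109 and 157 in young controls. As for Ppargc1b, old runners were all below old controls in RPM, as for 8.82% of all genes tested, but not on the deposited scale. The nearest values in RPM were 130.01 in a runner and 131 in a control. Differences were -0.23 in old mice (-0.52 to 0.07, limma adjusted p = 0.409) and -0.02 in young mice (-0.40 to 0.36, adjusted p = 0.966). The young value was 0.06 without Yc4, so its sign is not settled.

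Esrrg, encoding ERRγ, a receptor linked to oxidative fibers in mice (chr1:187608791-188214885, plus strand), had the widest spread of the 10. It measured 22.1, 32.1, 23.3 and 29.3 RPM in old runners, against 15.6, 0.775, 15.7 and 20.2 in old controls, and 27.6, 32.1, 20.6 and 29.9 in young runners, against 0.203, 32.7, 20.52 and 16.9 in young controls. The low values were those of Oc2, with 40 reads, and Yc4, with 9 reads. All old runners lay above all old controls, as did 4.86% of all genes tested in that comparison, while the young groups overlapped. The difference was 1.01 in old mice (0.19 to 1.83, limma adjusted p = 0.207) and 0.56 without Oc2 (adjusted p = 0.205). In young mice it was 1.08 (-0.29 to 2.46, adjusted p = 0.394) and 0.31 without Yc4 (adjusted p = 0.505). The average over both ages was 1.05 (0.21 to 1.89, adjusted p = 0.0995), and 0.66 without Yc4 (adjusted p = 0.0971) and 0.82 without Oc2 (adjusted p = 0.184). Esrrg passed in 2 of 25 alternatives of the average, with library weights (0.79, limma adjusted p = 0.0202) and without Yc5 (1.26, adjusted p = 0.0409). With voom on the recovered reads the average was 1.89 (adjusted p = 0.0844) and the old difference 2.01 (adjusted p = 0.208).

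Nrf1, encoding nuclear respiratory factor NRF1, an activator of respiratory chain and Tfam transcription (chr6:30047988-30153458, plus strand), had 16.7, 16.1, 24.1 and 17.3 RPM in old runners, against 22.6, 22.0, 18.5 and 20.8 in old controls. Young runners had 14.3, 14.7, 13.3 and 16.2, and young controls 39.6, 16.5, 19.3 and 20.3. The young runners all lay below the young controls, as did 5.77% of all genes tested, and Yc4 held the highest value of the 16. The difference was -0.45 in young mice (-0.98 to 0.08, limma adjusted p = 0.354), -0.21 without Yc4 (adjusted p = 0.535), and -0.06 in old mice (-0.36 to 0.24, adjusted p = 0.861).

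Tfam (chr10:71225464-71238280, minus strand) had overlapping levels in all groups. It ranged over 34.8 to 42.0 RPM in old runners, 30.6 to 53.9 in old controls, 34.8 to 55.0 in young runners and 33.4 to 48.6 in young controls. No group stood apart from another. The difference was 0.07 in old mice (-0.24 to 0.39, limma adjusted p = 0.832), 0.18 in young mice (-0.24 to 0.60, adjusted p = 0.653) and 0.13 on average (-0.12 to 0.37, adjusted p = 0.510).

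**Figure D3:**
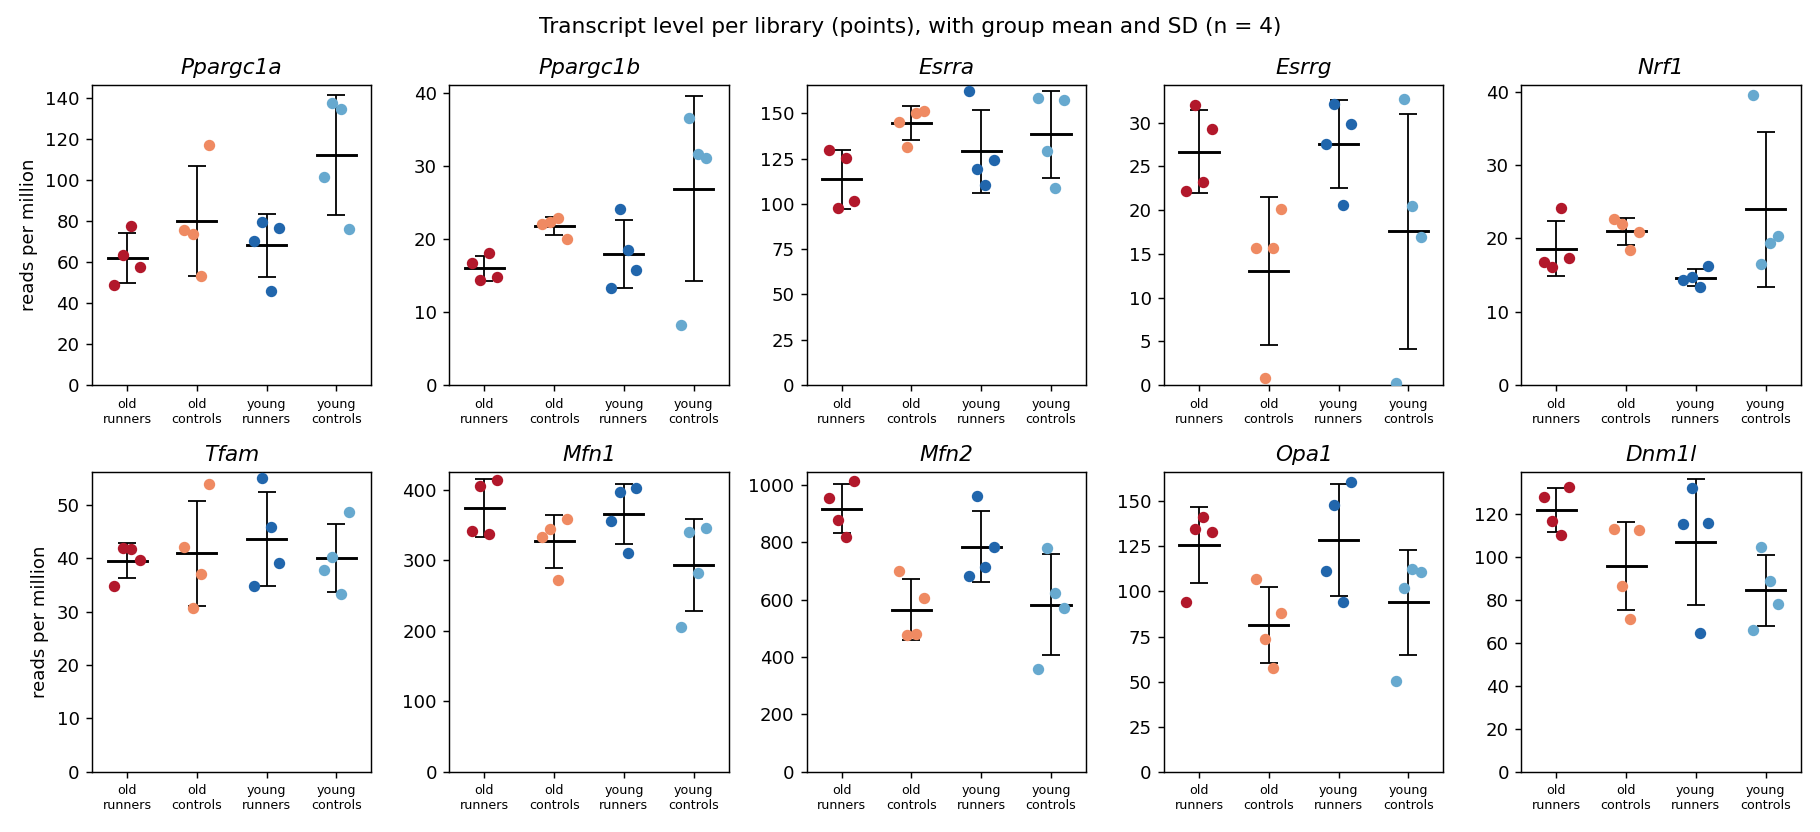
RPM (y axis, from 0) of each gene in every library (points), with the mean (wide bar) and SD (whiskers) of each group of 4. Mfn2 and Opa1 are higher on average in runners at both ages, and the young control point apart from its group in Ppargc1b, Nrf1, Opa1 and Esrrg is Yc4.

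Mfn2, the mitofusin that also tethers mitochondria to the endoplasmic or sarcoplasmic reticulum, lies on chr4:147873599-147904704, minus strand. It had 956, 879.7, 819 and 1014 RPM in old runners, against 699, 479, 481 and 605 in old controls. Young runners had 683, 963, 714 and 782, and young controls 358, 780.1, 625 and 571. In old mice each runner was above each control, as for 4.86% of all genes tested. In young mice the highest control, Yc5, lay among the runners and the lowest was Yc4. Mfn2 averaged 917 ± 85.4 in old runners and 566 ± 106 in old controls, and 786 ± 125 in young runners and 583 ± 175 in young controls (SD, n = 4 each). The difference was 0.81 in old mice (0.44 to 1.18, limma adjusted p = 0.0888) and 0.55 in young mice (0.05 to 1.05, adjusted p = 0.246; 0.35 without Yc4). Averaged over both ages Mfn2 rose by 0.68 (0.37 to 0.99, limma adjusted p = 0.0107), which placed it at percentile 97.0 of the genes tested. It passed in 25 of 25 alternatives, with differences of 0.58 to 0.76 and adjusted p of 0.000557 to 0.0294.

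Opa1, the inner-membrane fusion GTPase that also shapes cristae (chr16:29579334-29654884, plus strand), had 94.3, 134, 141 and 133 RPM in old runners, against 107, 73.6, 57.7 and 87.9 in old controls. Young runners had 111, 148, 94.1 and 161, and young controls 50.5, 102, 112 and 111. In old mice O1ex was the only runner below the highest control, Oc1, and in young mice Yc4 was lowest. The difference was 0.69 in old mice (0.29 to 1.09, limma adjusted p = 0.125) and 0.55 in young mice (0.00 to 1.09, adjusted p = 0.288; 0.30 without Yc4). Averaged over both ages Opa1 rose by 0.62 (0.28 to 0.96, limma adjusted p = 0.0252) and passed in 20 of 25 alternatives. It did not pass without O4ex (0.60, adjusted p = 0.0554), Oc3 (0.55, 0.0528), Y2ex (0.58, 0.0604) or Y4ex (0.58, 0.0518), nor when the trend on exon length was removed (0.53, 0.0518). Without Yc4 the averaged difference was 0.495 (limma adjusted p = 0.0261), the lowest over the alternatives.

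Mfn1, the second mitofusin (chr3:32529465-32579239, plus strand), had 341, 405, 337 and 413 RPM in old runners, against 333, 344, 272 and 358 in old controls. Young runners had 356, 396, 309.5 and 402, and young controls 205, 339.8, 282 and 346. Both ages overlapped in these units, while on the deposited scale each young runner was above each young control, as for 5.71% of all genes tested. The difference was 0.30 in old mice (-0.01 to 0.61, limma adjusted p = 0.307), 0.42 in young mice (0.03 to 0.80, adjusted p = 0.252; 0.27 without Yc4) and 0.36 on average (0.12 to 0.59, adjusted p = 0.0508), just short of the threshold. It passed in 6 of 25 alternatives of the average. Per exon length, Mfn2 exceeded Mfn1 by 2.56 to 3.30 times in old runners and 1.64 to 2.47 times in old controls, without overlap, and by 2.26 to 2.86 times in young runners and 1.94 to 2.70 times in young controls, with overlap. These ratios were not tested, and how often ratios of other gene pairs lie apart in this way was not counted. Mfn2 alone already lay apart in old mice, as for 4.86% of all genes tested, so the ratio is not a separate result.

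Dnm1l, whose product DRP1 constricts and divides mitochondria (chr16:16312230-16358959, minus strand; its exons overlap the opposite-strand gene Gm49521), had 128, 116, 110.3 and 132 RPM in old runners, against 113, 86.5, 71.0 and 113 in old controls. Young runners had 115, 132, 64.6 and 116, and young controls 65.8, 104, 89.0 and 78.0. The groups overlapped at both ages, with Y3ex the lowest of all 16. The difference was 0.44 in old mice (0.07 to 0.81, limma adjusted p = 0.213), 0.38 in young mice (-0.10 to 0.85, adjusted p = 0.389; 0.28 without Yc4) and 0.41 on average (0.11 to 0.70, adjusted p = 0.0694). It passed in 4 of 25 alternatives of the average. The fission gene thus had a positive difference alongside the fusion genes. Mfn2 over Dnm1l per exon length was 7.54 ± 0.101 in old runners and 5.98 ± 0.645 in old controls, and 7.78 ± 2.27 in young runners and 6.82 ± 0.940 in young controls (SD, n = 4 each).

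The running effect was not shown to differ between the ages for any of the 10 genes. In the test of the old minus the young effect 0 of 9356 genes passed in limma (0%; 585 had an unadjusted p under 0.05, and voom on the recovered reads also called 0). The lowest adjusted p of the 10 was 0.868. The old minus young difference of the effects was 0.26 for Mfn2 (-0.35 to 0.88), 0.14 for Opa1 (-0.53 to 0.82) and 0.40 for Ppargc1a (-0.24 to 1.04). These limits are wide enough to hold differences as large as the running effects themselves.

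**Figure D4:**
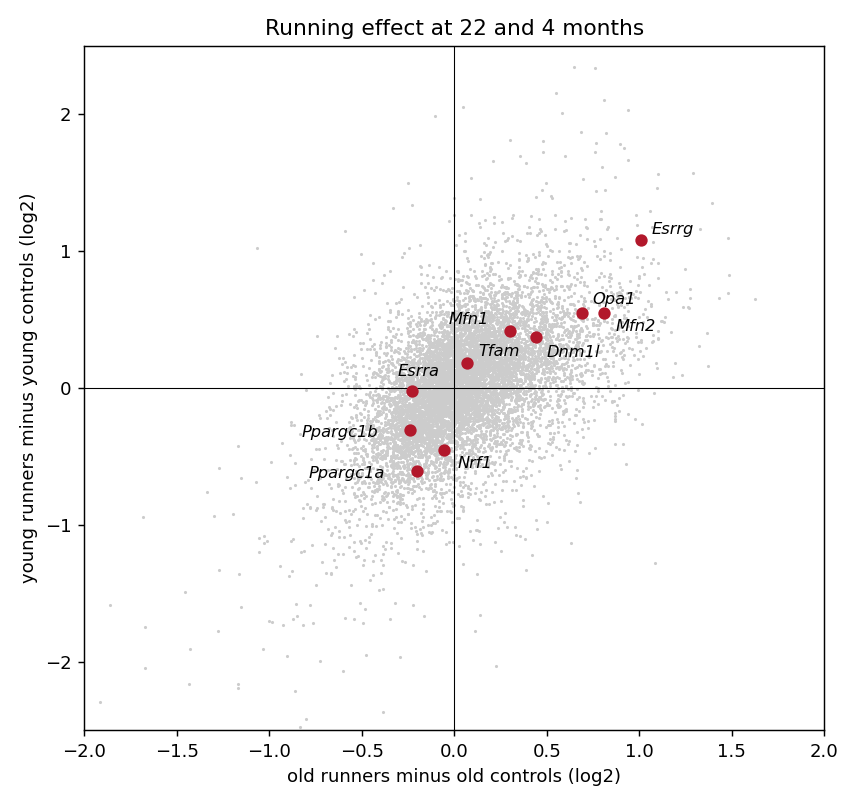
Running effect in old mice (x axis, old runners minus old controls, log2) and in young mice (y axis, young runners minus young controls, log2) for all genes tested in both (grey; a few lie beyond the axes) and the 10 genes (red). Esrrg, Mfn2, Opa1, Dnm1l, Mfn1 and Tfam are positive on both axes and Ppargc1a, Ppargc1b, Nrf1 and Esrra negative on both.

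Age itself was compared in controls and in runners, which uses the same libraries as the running comparisons. Between old and young controls 11 of 9831 genes passed (0.112%) and 0 of the 10, and the lowest adjusted p was that of Ppargc1a, with a difference of -0.45 (-0.98 to 0.09, limma adjusted p = 0.518). Ppargc1a averaged 80.0 ± 26.9 RPM in old controls and 112 ± 29.3 in young controls (SD, n = 4 each). Between old and young runners 2 of 9387 genes passed (0.0213%) and 0 of the 10. Nrf1 had the lowest adjusted p there, with a difference of 0.24 (-0.03 to 0.52, limma adjusted p = 0.982), and on the deposited scale old runners all lay above young runners, as for 1.83% of genes tested. Mfn2 differed by 0.01 between old and young controls (-0.49 to 0.52, adjusted p = 0.989) and by 0.25 between old and young runners (-0.11 to 0.61, adjusted p = 0.988).

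The differences ran with transcript length, which bears on long transcripts such as Opa1 (7875 bp of exon) and Nrf1 (10282 bp). Across 9216 genes the old runner minus old control difference had a Spearman rho of 0.338 with exon length, and across 10420 genes the young difference had a rho of 0.122. Genes are not independent replicates, and these values only describe the libraries. At the exon length of Mfn2 (5194 bp) the smooth trend of all genes stood at 0.09 in old mice and 0.07 in young mice, and at that of Opa1 at 0.16 in old mice and 0.07 in young mice. With the trend removed the averaged difference was 0.63 for Mfn2 (limma adjusted p = 0.0170), which still passed. For Opa1 it was 0.53 (adjusted p = 0.0518), so Opa1 no longer passed. For Nrf1 it was -0.35 (adjusted p = 0.116).

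**Figure D5:**
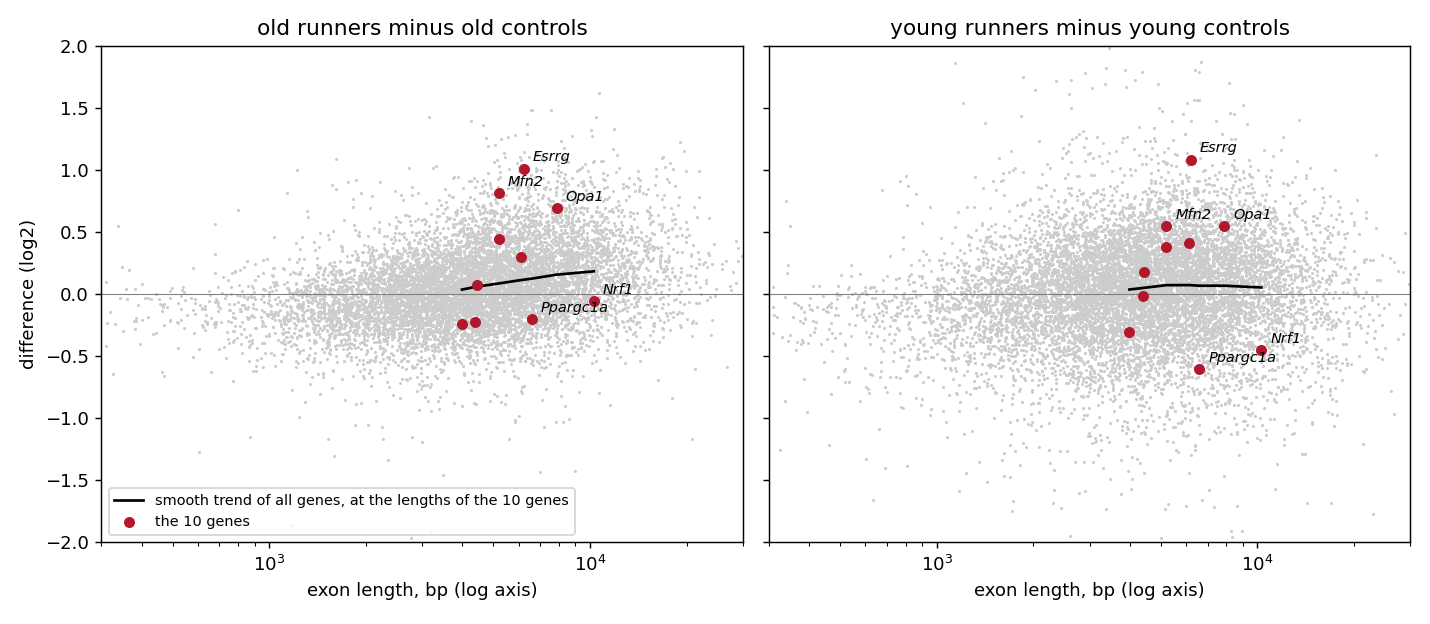
Running effect (y axis, log2) against exon length (x axis, bp, log axis) for all genes tested (grey; a few lie beyond the axes) and the 10 genes (red) in old mice (left) and young mice (right), with the smooth trend of all genes in black. Mfn2, Opa1 and Esrrg lie above the trend at both ages, and Ppargc1a below it.

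Neighbouring parts of the pathway were read from 6 lists, all in the comparison averaged over both ages and against its background of 9.92% called. Of 31 tested kinases, phosphatases and other regulators upstream of PGC-1, 3 rose and 0 fell, a share close to that background. Camk2b, a calcium/calmodulin kinase subunit, averaged 230.2 ± 14.6 RPM in old runners and 125 ± 47.1 in old controls, and 153 ± 28.2 in young runners and 97.8 ± 32.5 in young controls (SD, n = 4 each; difference 0.88, limma adjusted p = 0.00734). Prkaa1, a catalytic subunit of AMP-activated kinase, rose by 0.91 (adjusted p = 0.0103), and Ppp3cb, a catalytic subunit of calcineurin, by 0.29 (adjusted p = 0.0372). The list's median difference was 0.19, against 0.04 for all genes. Of 16 tested partners 0 passed. The smallest p were those of Gabpa, an ETS factor of nuclear respiratory genes (0.45, limma adjusted p = 0.0753), and Rxra, a nuclear receptor partner (0.55, adjusted p = 0.0862).

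Among 19 tested genes that maintain, copy or transcribe mitochondrial DNA, 1 rose and 1 fell, close to the 9.92% of all genes called. Lonp1, the matrix protease that degrades free TFAM, rose by 0.47 (limma adjusted p = 0.0330). Mterf3, known in mice as a repressor of mitochondrial transcription, fell by 0.57 (adjusted p = 0.00443), with 26.9 ± 7.53 RPM in old runners and 43.6 ± 3.74 in old controls, and 27.4 ± 5.28 in young runners and 47.0 ± 4.41 in young controls (SD, n = 4 each). The list's median was 0.10.

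Of 20 tested genes of the inner membrane and of fusion control, 2 rose and 0 fell, close to the 9.92% of all genes called. Immt, the core subunit of the cristae-organising MICOS complex, rose by 0.40 (limma adjusted p = 0.0137), with 461 ± 28.4 RPM in old runners and 440.5 ± 32.7 in old controls, and 444 ± 52.3 in young runners and 302 ± 38.0 in young controls (SD, n = 4 each). Spg7, an inner-membrane protease subunit, rose by 0.42 (adjusted p = 0.0454). Of 12 tested fission factors 1 fell, also close to the share of all genes called. That gene was Mff, an outer-membrane receptor for DRP1, which fell by 0.45 (adjusted p = 0.00961) and averaged 222 ± 37.3 RPM in old runners and 293 ± 25.7 in old controls, and 212 ± 23.6 in young runners and 347 ± 61.5 in young controls. Mff was therefore lower in runners while Dnm1l, whose product it recruits, had an uncalled positive difference. The medians of the inner-membrane and fission lists were 0.05 and 0.02, close to that of all genes.

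Of 22 tested genes known as PGC-1 targets, 4 rose and 1 fell, against 9.92% of all genes called, with a median difference of 0.14. Ldhb, the lactate dehydrogenase subunit of oxidative tissue, rose by 0.99 (limma adjusted p = 0.00387), with 178 ± 60.5 RPM in old runners and 102 ± 40.2 in old controls, and 218 ± 45.4 in young runners and 104 ± 9.60 in young controls (SD, n = 4 each). In young mice alone Ldhb was the 1 gene that passed (1.097, limma adjusted p = 0.0205) of the 121 tested in the 6 lists, close to the share of all genes (0.762%). Bdh1, a ketone body dehydrogenase, rose by 1.30 (limma adjusted p = 0.0198), but its levels were low and widely spread. It had 8.27 ± 8.22 RPM in old runners and 2.09 ± 2.79 in old controls, and 10.0 ± 7.39 in young runners and 1.19 ± 1.30 in young controls. Vegfa, an angiogenic growth factor gene induced by PGC-1α in muscle, fell by 0.77 (adjusted p = 0.0117), with 452 ± 184 RPM in old runners and 714 ± 89.8 in old controls, and 475 ± 96.6 in young runners and 946 ± 216 in young controls.

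Early response genes, which many stresses and tissue handling induce, were compared as a further list. What set their level was not tested. Of 18 tested, 0 rose and 5 fell in the averaged comparison (median difference -0.35), against 4.85% of all genes that fell. In old mice 3 of 18 fell, against 0.0533% of all genes. The 20 listed genes summed to 9930.2 to 16756 RPM in old runners and 19958 to 25034 in old controls, without overlap, and to 14365 to 21015 RPM in young runners and 17042 to 21943 in young controls, with overlap. Their part in the differences of Ppargc1a and Vegfa was not tested.

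Within groups, pairs of the 10 genes were compared over the 16 libraries after centring each gene on its group mean, and 0 of 45 pairs passed (permutation within groups, 100000 resamples, 2-sided, adjusted over the 45 pairs). Correlations were positive in 32 pairs. The closest pair was Mfn1 and Opa1, with a Pearson r of 0.81 (permutation p = 0.00406, adjusted p = 0.0615) and a Spearman rho of 0.63 (permutation p = 0.02005, adjusted p = 0.170), and r was 0.61 without the 2 libraries farthest from the median of Mfn1. Mfn2 and Dnm1l had an r of 0.72 (permutation p = 0.00413, adjusted p = 0.0615) and a rho of 0.78 (permutation p = 0.00450, adjusted p = 0.170), with r at 0.69 without the 2 libraries. Ppargc1a and Mfn2 had an r of 0.35 and a rho of 0.40 (permutation p = 0.275 and 0.185, adjusted p = 0.438 and 0.470), and r was 0.32 without 2 libraries.

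The transcripts most like Ppargc1a and Mfn2 over the 16 libraries were sought among 9107 genes by the Pearson r of log2(RPM + 1), as a description. For Ppargc1a these were Stx5a, a syntaxin of Golgi transport (r = 0.92), Gm16907 (r = 0.90) and RP23-243B24.4 (r = 0.89). For Mfn2 they were Rab10, a small GTPase of vesicle traffic (r = 0.95), Nrd1, a metalloprotease gene (r = 0.95), and Dctn1, a dynactin subunit gene (r = 0.95). Both genes of each pair were read from the same libraries, with their shared groups and depths, so these values carry no test.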

How the data were processed

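Myofiber RNA was amplified with a low-input kit and libraries were made with an unstranded ligation kit, per the labels' protocols. Per the submitters' processing notes, the authors used Trim Galore, STAR, featureCounts of Subread and DESeq2 on mm10; their versions and the annotation are not given in the sources used here. Deposited by the authors were 4 tables of log2 values, each holding 1 pair of groups and normalised on its own, with floors of 6.73 to 7.69 for a gene with no reads. That these are variance-stabilised values was read from their form: undoing it returned numbers of which 100% lay within 0.02 of a whole read (at most 0.00992 away), equal between tables that share a library. RPM values use the total of recovered reads. Of 23222 symbols, 22254 (95.8%) matched GENCODE M21, used for positions and exon lengths; promoters are from RefSeq GRCm38.p6. Old runner and young runner libraries numbered 4 and the control libraries match no single sample title and were assigned to their group only.

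Differences were tested with limma 3.58.1 (R 4.3.3; variance trend, 2-sided) on the deposited log2 values of each table, for genes that exceeded the floor by 1 or more in 4 or more libraries, with Benjamini-Hochberg adjustment over all genes tested and a threshold of 0.05. All 10 genes passed the filter. The difference and the average of the running effects came from 1 fit of both exercise tables with age as a term. The runs were tested on simulated data. Pair correlations used SciPy 1.17.1 on log2(RPM + 1). From each list, up to 3 genes higher and 3 lower past the threshold with the smallest p are named, or the 2 with the smallest p where none passed. A gene that this rule also names is not reported here. The genes and lists were chosen with earlier results of these data known. Alternatives were other filters, median or quantile normalisation, no variance trend, library weights, voom on recovered reads, removal of the exon-length trend, a replicate block and leaving out each library. The averaged effect and its alternatives were added after the data were seen.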

Additional observations from a re-analysis of the deposited data

Results flagged for a closer look

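In 7 of 40 groups of 4 values 1 library lay far from the other 3, by its gap to the nearest of them over the range of the group, past Dixon's critical value. Chance alone gives about 1 such group in 20. Yc4, a young control, accounted for 3. Its deposited log2 value was 9.18 for Ppargc1b, against 10.63 to 10.89 in the other young controls, 11.01 for Nrf1, against 9.92 to 10.10, and 11.33 for Opa1, against 12.27 to 12.35. In old controls Oc2 had 8.27 for Esrrg, with 40 reads, against 10.00 to 10.21 in the others, and Oc4 had 10.20 for Ppargc1b, against 10.39 to 10.42. Among runners, O1ex had 12.32 for Opa1, against 12.63 to 12.69 in the other old runners, and Y1ex had 12.94 for Esrra, against 12.51 to 12.55 in the other young runners.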

How the results depend on the processing

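In the averaged comparison, where 2 of the 10 genes passed, 6 passed with library weights and 1 with the exon-length trend removed, and 1 to 5 when single libraries were left out (1 without O4ex, Oc3, Y2ex or Y4ex, 4 without Y3ex, 5 without Yc5). Mfn1 also passed with the filter at 2 above the floor (limma adjusted p = 0.0443) and with voom on recovered reads (adjusted p = 0.0465). Ppargc1a did so with quantile normalisation (adjusted p = 0.0498). The number of all genes called also changed with the alternative, over the ranges given below. The share of all genes under each was not set beside these counts or those for old mice. The counts therefore carry no result about the 10 genes against all genes. In old mice, where 0 passed, 3 passed with library weights and 0 to 2 when single libraries were left out (Mfn2 with 0.94 and Opa1 with 0.84 without Oc1); in young mice, between the ages and for the old minus young effect, 0 passed under every alternative run. Over the alternatives, counts over all genes ran from 1 to 688 (main value 12) in old mice, 0 to 1394 (81) in young mice, 3 to 461 (11) between controls, 0 to 7 (2) between runners, 0 to 27 (0) for the old minus young effect and 368 to 2544 (928) for the average. No difference that passed changed sign, but 58 of 1190 member differences did, all uncalled. Esrra in young mice was 0.043 with library weights and -0.135 to 0.064 with single libraries left out, and Tfam in old mice -0.018 to 0.166. Between controls, Mfn2 was -0.032 (quantile normalisation), -0.200 (library weights), -0.013 (voom on 16 libraries) and -0.184 to 0.181 (left out), Nrf1 0.036 (library weights), 0.064 (length trend removed) and -0.182 to 0.155, Esrra -0.020 to 0.177, Esrrg -0.793 to 0.358, Opa1 -0.373 to 0.008, Ppargc1b -0.447 to 0.070 and Tfam -0.062 to 0.123. Between runners, Esrrg was 0.010 (median centring) and -0.085 to 0.069, Opa1 -0.097 (library weights) and -0.087 to 0.091, Ppargc1b -0.185 to 0.032 and Tfam -0.184 to 0.020. For the old minus young effect, Esrrg was 0.045 (quantile normalisation), 0.342 (library weights), 0.355 (voom), 0.271 (voom on 16 libraries) and -0.528 to 0.700, Mfn1 0.006 (library weights) and -0.206 to 0.029, Ppargc1b -0.001 (voom), -0.014 (voom on 16 libraries) and -0.117 to 0.453, Dnm1l -0.112 to 0.184 and Tfam -0.212 to 0.004. The cause was not tested. Runner numbers did not pair old with young libraries (correlations of deviations -0.240, 0.0924, -0.398 and -0.0441 for numbers 1 to 4), and with the replicate block 0 of the 10 genes and 0 genes in all passed between runners; no paired analysis was possible between controls because their deposited columns match no single sample and share only the number 4. With 4 libraries a group, true differences anywhere within the 95% limits given beside each value could not be told apart.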
